A study of Mus musculus with 8 samples.

Results

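Itga6, Itgb4, Itga3, Itgb1, Col17a1, Dst, Plec and Cd151 are 8 genes with products that anchor basal keratinocytes to the basement membrane. They were taken by symbol, and 8 of 8 were found among the 23432 gene symbols listed in each library. Polyadenylated RNA was sequenced in bulk from mouse skin epithelium in 8 libraries, 2 per group. At E16.5, before birth, K14-H2BGFP+ cells, marked by a nuclear green fluorescent reporter expressed where Krt14 is active, were sorted from back skin of control and of MOFfl/fl/K14Cre embryos (MOF cKO). At P0.5, just after birth, total epidermal cells were taken from control and Kansl1fl/fl/K14Cre pups (Kansl1 cKO), with the sheet separated from the dermis by dispase and floated on TRIzol. Controls are labelled only as such; the study describes wild-type or heterozygous littermates as controls of its MOF cKO mice, and a mixed C57Bl/6J and CD-1 background for all mice. Cre was driven by the Krt14 promoter in both deletions, so the deletion reaches cells in which that promoter is or has been active. MOF is the histone acetyltransferase encoded by Kat8, and KANSL1 is a scaffold of one of its complexes.

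Hemidesmosomes rivet the basal layer of the epidermis to the basement membrane. The integrin made of the Itga6 and Itgb4 chains and the transmembrane collagen of Col17a1 bind laminin outside the cell. Inside, the plakins plectin (Plec) and dystonin (Dst, in its epithelial form the bullous pemphigoid antigen) tie both to keratin filaments of Krt5 and Krt14. The integrin of Itga3 and Itgb1 binds the same laminin outside hemidesmosomes, mostly in focal adhesions, and Cd151 is a tetraspanin that associates with both laminin-binding integrins. The comparisons ask whether transcripts of this apparatus moved when MOF or KANSL1 was lost from the epidermis.

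The number of counts on genes was 22484018 to 27561688 in the E16.5 libraries and 9108709 to 19774643 in the P0.5 libraries. Kat8 was at 14.4 and 14.7 CPM (a gene's counts scaled by the size of the library) in E16.5 control and at 12.4 and 13.9 in MOF cKO (log2 difference -0.14, adjusted p = 0.554 by edgeR). Kansl1 was at 40.7 and 48.2 CPM in P0.5 control and at 31.4 and 30.6 in Kansl1 cKO (log2 difference -0.52, adjusted p = 0.242). A count over the whole gene does not separate deleted from remaining exons. A single library in each experiment stood apart for Xist, the RNA of the inactive X chromosome. E16.5 control replicate 1 had 1518 CPM where the other E16.5 libraries had 9.99 to 12, and P0.5 control replicate 2 had 1.23 CPM where the other P0.5 libraries had 371 to 427. Ddx3y, a gene of the Y chromosome, was reversed, with 7 counts against 1779 to 2249 at E16.5 and 1816 against 0 at P0.5. By both genes, MOF cKO libraries read as male, Kansl1 cKO libraries as female and each control pair as mixed. The study used both sexes, and the part of sex was not tested. Krt5, the defining basal keratin, was at a mean of 19544 CPM in E16.5 control and 8824 CPM in P0.5 control, so the labelled cell type had its markers. Together the 8 genes took 0.452 to 0.507% of gene counts at E16.5 and 0.269 to 0.331% at P0.5. In these bulk libraries, fewer basal cells and less RNA per basal cell cannot be told apart.

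The promoter windows of Itgb1, Cd151 and Col17a1 are shown because their MOF cKO differences had opposite signs: Itgb1 and Cd151 rose, and Col17a1, the most abundant of the 8, had both MOF cKO libraries below both controls without passing the test. Each window holds 250 bases before to 50 after a RefSeq start site, written 5′ to 3′ on the strand of the gene, build GRCm38.p6. Capitals mark the GC box GGGCGG on either strand. The Itgb1 window is chr8:128685404-128685703 on the plus strand, that of Cd151 is chr7:141467112-141467411 on the plus strand, and that of Col17a1 is chr19:47691993-47692292 on the minus strand.
Itgb1: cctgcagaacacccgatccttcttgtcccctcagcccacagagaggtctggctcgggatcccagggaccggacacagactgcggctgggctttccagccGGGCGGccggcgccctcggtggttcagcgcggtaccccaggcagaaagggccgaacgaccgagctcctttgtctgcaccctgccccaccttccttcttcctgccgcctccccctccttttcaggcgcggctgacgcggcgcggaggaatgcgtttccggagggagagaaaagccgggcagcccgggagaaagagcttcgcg
Cd151: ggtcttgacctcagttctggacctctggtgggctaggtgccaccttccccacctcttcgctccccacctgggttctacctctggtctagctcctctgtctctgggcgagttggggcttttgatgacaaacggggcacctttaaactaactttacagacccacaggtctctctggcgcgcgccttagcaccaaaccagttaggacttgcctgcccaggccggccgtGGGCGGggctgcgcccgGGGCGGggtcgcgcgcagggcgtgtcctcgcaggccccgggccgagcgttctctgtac
Col17a1: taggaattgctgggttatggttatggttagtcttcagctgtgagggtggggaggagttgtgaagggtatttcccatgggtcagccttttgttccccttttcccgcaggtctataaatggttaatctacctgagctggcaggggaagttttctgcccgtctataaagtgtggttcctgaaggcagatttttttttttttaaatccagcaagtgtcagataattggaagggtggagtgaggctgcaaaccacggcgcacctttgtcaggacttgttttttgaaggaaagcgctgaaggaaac

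The Itgb1 window held 67.3% G and C with 27 CpG dinucleotides, and the Cd151 window 64.3% with 20. The Col17a1 window held 46.3% G and C with 5 CpG, against medians of 52.7% and 7 over all 32851 RefSeq windows. GC boxes were found once in the Itgb1 window and at 2 places in the Cd151 window, and none was found in that of Col17a1. A second Cd151 window (chr7:141468539-141468838) held 4 CpG and 0 GC boxes, and a window of Dst, which was not called, held 70.3% G and C, 31 CpG and 4 GC boxes. RefSeq windows were held for 5 of the 8 genes, 8 windows in all. Of these, 5 held a GC box, as did 35.7% of all windows. The AP1 motif TGANTCA was in 1 of the 8 (an Itga3 window) and in 7.81% of all windows, and the TEAD motif GGAATG was in 1 (Itgb1, 7 bases before the start site) and in 14.7%. An RFX X-box (GTTNCC and GGNAAC separated by 0 to 3 bases) and a p53-family half-site were in 0 of the 8, against 0.804% and 1.93% of all windows. Both strands were searched, and a match is a description of letters only. Itga6, Itgb4 and Plec are named only.

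In E16.5 control the members spanned a wide range of levels. Compared as TPM, counts per length of exon scaled to a common total, Col17a1 was highest at 1148 ± 81.1 (SD, n = 2), and Itgb4 followed at 321 ± 3.37, Itgb1 at 253 ± 8.11 and Itga3 at 219 ± 10.2. Cd151 at 155 ± 6.63 and Plec at 154 ± 39.9 came next, and their libraries overlapped. Itga6 was at 113 ± 15.9 and Dst lowest at 30.4 ± 5.37. All neighbours in this order other than Cd151 and Plec were apart in both libraries. The low place of Dst rests in part on its length: 41155 bases of exon in the union of 20 annotated transcripts, which include forms of other tissues. With the longest transcript of each gene as its length, Dst was at 40.1 TPM and still lowest, and Itga6 passed Plec and Cd151.

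In P0.5 control the order was Col17a1 at 545 ± 25.9 TPM, Itgb1 at 190.0 ± 21.3 and Itgb4 at 95.4 ± 9.56. Itga3 at 68.4, Itga6 at 68.2, Plec at 62.3 and Cd151 at 49.7 TPM followed, each overlapping its neighbour, and Dst was at 28.9 ± 4.42. Set beside E16.5 control, the P0.5 level was 0.298 times as high for Itgb4, 0.312 for Itga3, 0.320 for Cd151 and 0.406 for Plec. It was 0.474 times as high for Col17a1, 0.601 for Itga6, 0.750 for Itgb1 and 0.952 for Dst. The summed CPM of 9 suprabasal markers was between 3424 and 4236 in E16.5 control and between 44864 and 79080 in P0.5 control. Stage, isolation and sequencing instrument all differ between these groups and cannot be told apart, so no test was made. In MOF cKO, Col17a1 was first at 693 ± 37.7 TPM, and Itgb4 (322 ± 24.8) and Itgb1 (301 ± 27.3) overlapped. In Kansl1 cKO, Col17a1 was first at 453 ± 44.9 TPM and Itgb1 next at 220.2 ± 43.0. TPM carries no correction for composition, so genotypes are compared below in CPM scaled with TMM factors within each experiment.

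**Figure D1:**
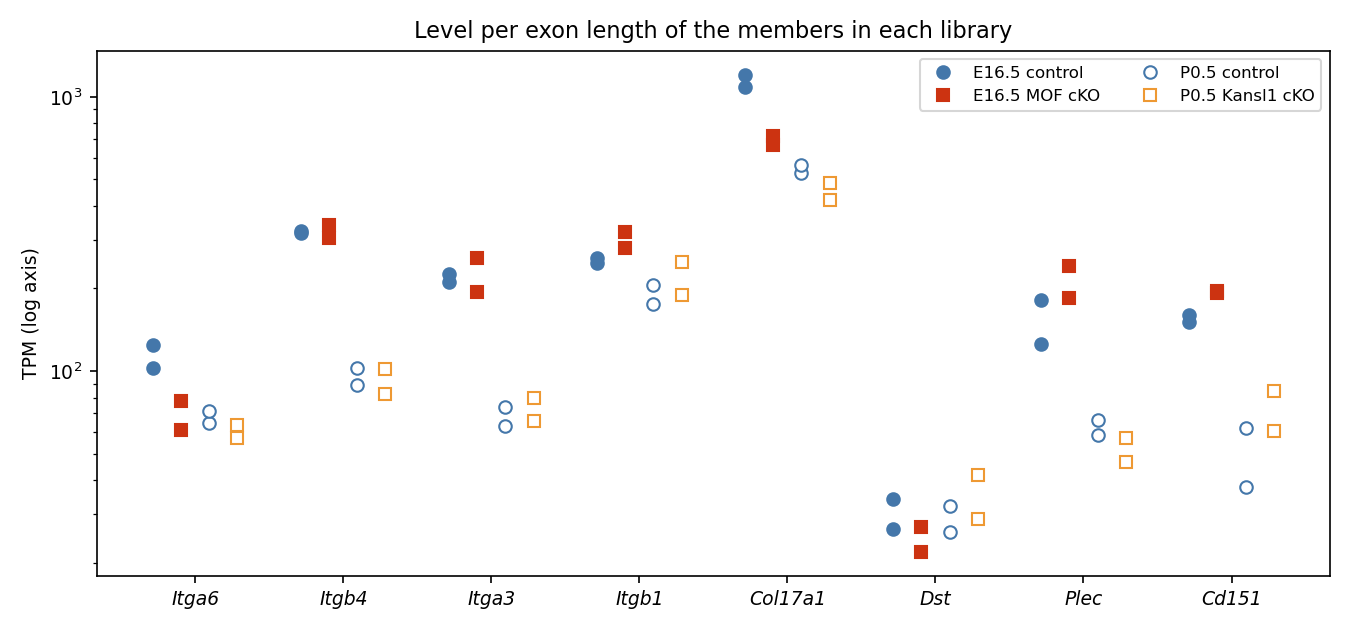
Level per exon length (TPM, log axis) of the 8 genes, 1 point per library, in E16.5 control, E16.5 MOF cKO, P0.5 control and P0.5 Kansl1 cKO. Col17a1 lies above and Dst below the other genes in every group.

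In MOF cKO at E16.5, Itgb1, Plec and Cd151 rose, and 0 of the 8 genes fell. A gene was called where edgeR's adjusted p did not exceed 0.01 and the level differed more than 1.5-fold. By this rule 3 of the 8 were called higher, where 10% of all 13956 genes tested were higher, 9.59% lower and 19.6% called either way. DESeq2 called the same 3 genes higher and 0 lower, where it called 13% of all genes higher, 12.4% lower and 25.4% either way. The log2 difference was above 0 for 6 of the 8 and for 49.1% of all genes, and its median was 0.47 against -0.02 for all genes tested. At an unadjusted p under 0.05, 6 of the 8 differed and 48.9% of all genes did, and Col17a1 was the 1 of these that was lower. At an adjusted p of 0.05 in place of 0.01, 3 of the 8 were again called higher and 0 lower, where 30.4% of all genes were called, 13.9% higher and 16% lower. Scaling by library size alone moved the median of all genes to -0.32 and that of the 8 to 0.17. Under that scaling 0 of the 8 were called higher, with adjusted p of 0.00768 for Cd151, 0.0208 for Itgb1 and 0.0325 for Plec, and the difference of Dst turned from 0.14 to -0.17. On the lower side, that scaling gave Col17a1 a log2 difference of -0.58 (adjusted p = 0.00436, just short of the fold threshold) and Itga6 one of -0.57 (adjusted p = 0.0221), so 0 of the 8 were called lower as well.

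**Figure D2:**
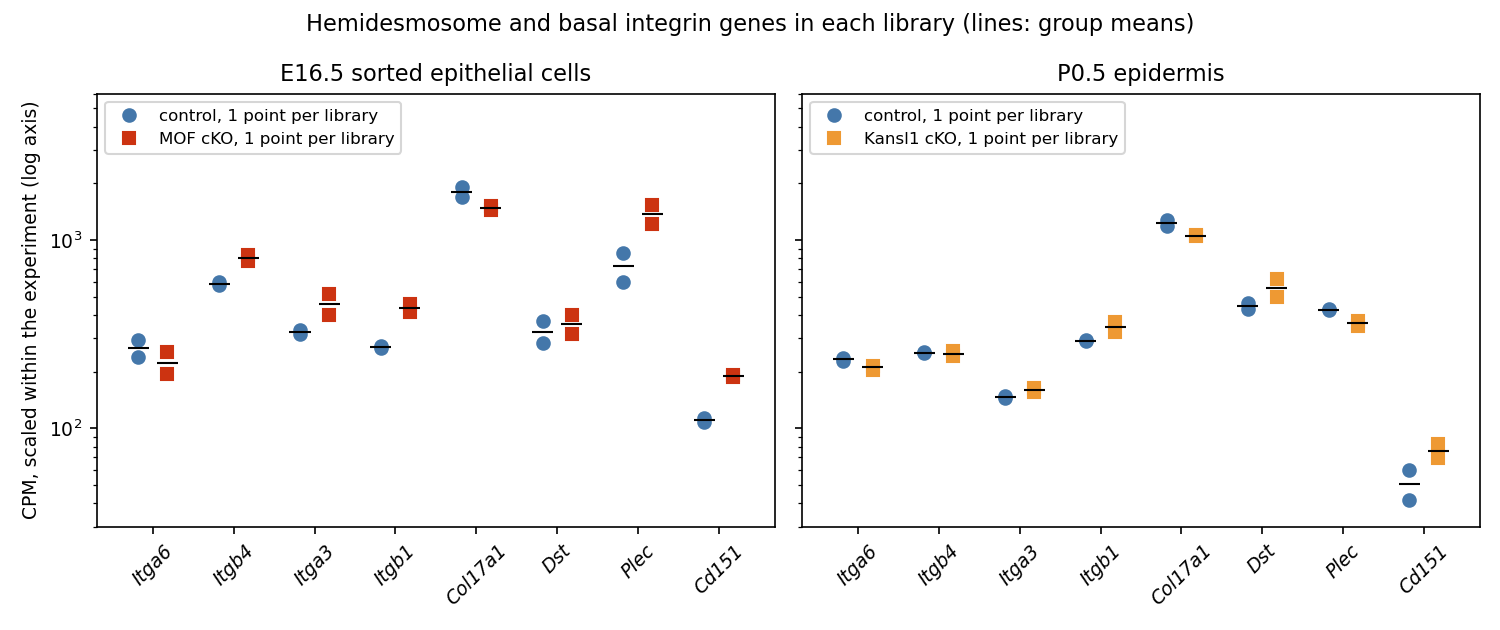
CPM (log axis) of each gene in each library, scaled within each experiment, with controls as circles, cKO as squares and group means as lines. At E16.5 both MOF cKO libraries lie above both controls for Itgb4, Itga3, Itgb1, Plec and Cd151 and below them for Col17a1.

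The chains of the hemidesmosomal integrin had differences of opposite sign, and neither was called. Itgb4 (chr11:115974709-116008412, plus strand), which carries the long cytoplasmic tail that docks plectin, was at 596 and 577 CPM in control and at 773 and 834 CPM in MOF cKO. Both MOF cKO libraries lay above both controls, but neither the fold of 1.37 nor the adjusted p passed the threshold (log2 difference 0.45, standard error 0.0997, adjusted p = 0.0109 by edgeR's quasi-likelihood test). Itga6 (chr2:71745616-71858416, plus strand), its laminin-binding partner, was at 296 and 238 CPM in control and at 253 and 193 CPM in MOF cKO, and the groups overlapped (-0.26, standard error 0.163, adjusted p = 0.243). Over all genes tested, 34.9% had both MOF cKO libraries above both controls and 37.7% had both below, 72.6% together. Among the 8, the libraries were apart on the higher side for 5 and on the lower side for 1.

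Of the focal adhesion integrin, the beta chain rose. Itgb1 (chr8:128685654-128733200, plus strand), the shared partner of many alpha chains, was at 266 and 273 CPM in control and at 416 and 457 CPM in MOF cKO. It rose 1.62-fold (log2 difference 0.70, standard error 0.104, adjusted p = 0.00241). Itga3 (chr11:95044474-95076801, minus strand) was at 318 and 333 CPM in control and at 401 and 517 in MOF cKO, apart but not called (0.49, standard error 0.137, adjusted p = 0.0260). Without MOF cKO replicate 1, Itga3 passed the threshold, with a log2 difference of 0.66 and an adjusted p of 0.00805. That fit has a single MOF cKO library, which is assumed to vary like the control pair.

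Cd151 (chr7:141467392-141471473, plus strand), the tetraspanin partner of both integrins, was the called gene with the smallest spread between libraries. It was at 109 and 113 CPM in control and at 191 and 188 CPM in MOF cKO, and rose 1.71-fold (log2 difference 0.77, standard error 0.0989, adjusted p = 0.00139).

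Among the plakins, Plec rose and Dst did not pass the test. Plec (chr15:76170974-76232574, minus strand) was at 597 and 850.3 CPM in control and at 1212 and 1533 CPM in MOF cKO, a 1.90-fold rise (log2 difference 0.92, standard error 0.187, adjusted p = 0.00791). The controls were far apart, and the call was lost without MOF cKO replicate 2 (0.74, adjusted p = 0.0198, with the spread taken from the control pair alone) and with upper-quartile factors (0.86, adjusted p = 0.0122). One exon of Plec shares bases with Parp10 on the same strand. Dst (chr1:33908225-34308661, plus strand) was at 370.3 and 283 CPM in control and at 402 and 315 CPM in MOF cKO, with overlapping groups (0.14, standard error 0.167, adjusted p = 0.553).

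Col17a1 (chr19:47646344-47692094, minus strand), the hemidesmosomal collagen, was at 1906 and 1693 CPM in control and at 1450.1 and 1514 CPM in MOF cKO, with both MOF cKO libraries below both controls. The difference did not pass the test (log2 difference -0.28, standard error 0.105, adjusted p = 0.0704). Its size and p moved with the setting: it was -0.58 with library size alone, as given above, and -0.28 with an adjusted p of 0.000404 when libraries were blocked by replicate number, in both cases below the fold threshold.

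Markers of other cell types moved in the same libraries. Of all genes there, edgeR called 10% higher and 9.59% lower, and 48.9% had an unadjusted p under 0.05. Suprabasal markers were higher for 6 of 9 genes, with a summed level of 3424 to 4236 CPM in control and 9262 to 10146 in MOF cKO. Macrophage markers were higher for 8 of 12, from 21.1 to 46.5 CPM in control to 111 to 139.5 in MOF cKO. Fibroblast markers were called for 0 of 8 (2 higher by DESeq2, 7 at an unadjusted p under 0.05), at 918 to 1556 CPM in control and 1548 to 2157 in MOF cKO. Dcn, the highest of them in control, was 1 of the 7 but was lower, at a mean of 502 CPM in control and 407 in MOF cKO (log2 difference -0.30). Hair germ markers fell for 3 of 7: mean CPM went from 62.3 to 10.3 for Shh, 132 to 14.5 for Lhx2 and 188 to 82.3 for Edar. Their summed level, 2051 to 2882 CPM in control and 2588 to 3557 in MOF cKO, was mostly Krt17. Krt17 was at a mean of 1882 CPM in control and 2788 in MOF cKO, so the sum does not track the other markers. The study reads Krt17 as a hair germ marker in control and a stress marker in MOF cKO. Endothelial markers were higher for 1 of 7 (7.01 to 8.77 against 12.6 to 26.6 CPM) and mural and muscle markers for 1 of 5 tested (2.48 to 6.50 against 20.9 to 32.4 CPM, with Myl1 at 0 in control). By edgeR 0 of 7 melanocyte markers (19.7 to 51.2 against 22.3 to 77.7 CPM) and 0 of 4 Schwann cell markers (26.9 to 36.1 against 37.4 to 58.2 CPM) were called (1 higher of each by DESeq2, and 1 of each at an unadjusted p under 0.05). Itgb1, Plec and Cd151 are also made by many other cell types, and the part of these cells in the members' values was not tested. Without E16.5 control replicate 1, the library with high Xist, 3 of the 8 genes were again called higher and 0 lower.

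**Figure D3:**
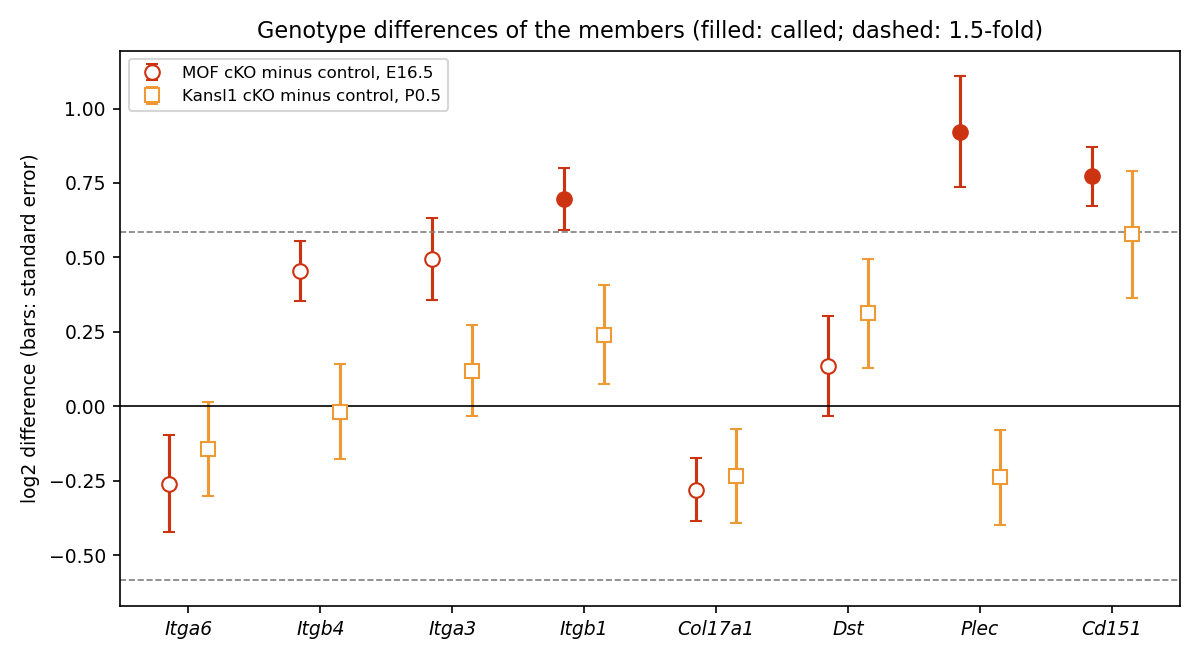
Log2 difference between cKO and control (points, with standard errors as bars) for the 8 genes in both experiments, with filled points for called genes and dashed lines at a 1.5-fold change. Only the MOF cKO points of Itgb1, Plec and Cd151 are filled, and the bars that reach 0 are those of Dst in MOF cKO and of Itga6, Itgb4 and Itga3 in Kansl1 cKO.

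Ratios of counts within a library do not depend on scaling between libraries, and they show how the balance of partners differed. Itga6 per Itgb4 was 0.497 and 0.413 in E16.5 control and 0.328 and 0.232 in MOF cKO, so both MOF cKO libraries lay below both controls (mean log2 difference -0.72). Col17a1 per Itgb4 was 3.20 and 2.94 in control against 1.88 and 1.82 in MOF cKO (-0.73), again apart. Itga3 per Itgb1 was 1.2 and 1.22 in control against 0.963 and 1.13 in MOF cKO (-0.21). Plec per Dst was 1.61 and 3.01 in control against 3.02 and 4.86 in MOF cKO (0.80), where the nearest libraries of the groups almost met. These are ratios of counts, not corrected for length, so they compare libraries and not genes.

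At P0.5 the same ratios were closer between genotypes, but in each of them both Kansl1 cKO libraries lay below both controls. Mean log2 differences were -0.12 for Itga6 per Itgb4, -0.22 for Col17a1 per Itgb4, -0.12 for Itga3 per Itgb1 and -0.54 for Plec per Dst. Those other than Plec per Dst were on the same side as in MOF cKO. Itga6 per Itgb4 was 0.938 and 0.903 in control and 0.801 and 0.890 in Kansl1 cKO, and Col17a1 per Itgb4 was 5.08 and 4.72 against 4.08 and 4.37. Itga3 per Itgb1 was 0.502 and 0.505 in control and 0.445 and 0.484 in Kansl1 cKO. Plec per Dst was 0.998 and 0.908 in control and 0.602 and 0.709 in Kansl1 cKO, the opposite side from MOF cKO. The ratios are given as values, with no test, and those to Itgb4 share its counts. The share of all gene pairs that lay apart was not computed. Of single genes in CPM, 48.7% lay apart at P0.5 and 72.6% at E16.5.

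**Figure D4:**
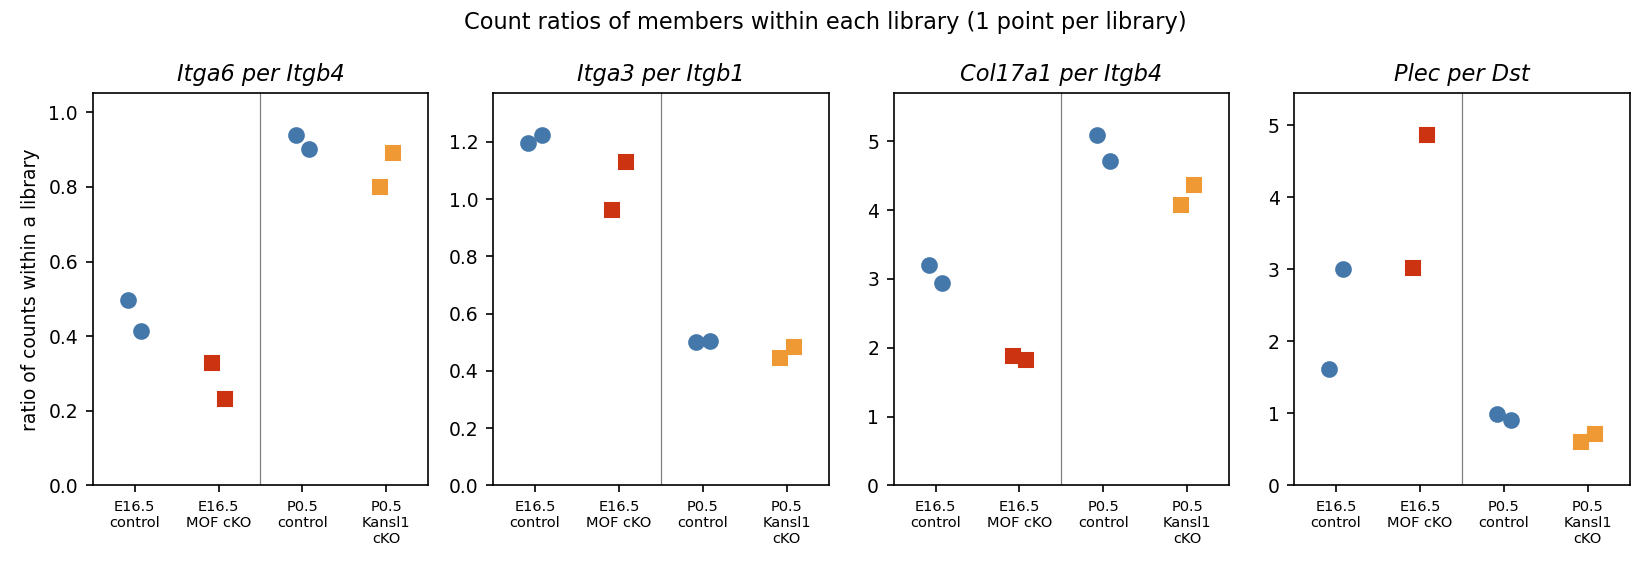
Ratio of counts of a pair of genes within each library (linear axes from 0), for Itga6 per Itgb4, Itga3 per Itgb1, Col17a1 per Itgb4 and Plec per Dst, with 1 point per library. The MOF cKO points lie below the E16.5 controls in the first 3 panels and above them in the last.

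Set against the basal keratins, measured as the log2 ratio of each gene to the summed counts of Krt5 and Krt14, 5 of the 8 genes were higher in both MOF cKO libraries than in both controls. The mean differences were 0.42 for Itgb4, 0.45 for Itga3, 0.66 for Itgb1, 0.74 for Cd151 and 0.90 for Plec. Col17a1 was lower in both (-0.31), and Itga6 (-0.30) and Dst (0.10) overlapped. In Kansl1 cKO at P0.5, the same ratio was also higher in both libraries for Cd151 (0.71), Dst (0.42), Itgb1 (0.35), Itga3 (0.23) and Itgb4 (0.09). There it was lower for Plec (-0.13), while Itga6 (-0.03) and Col17a1 (-0.12) overlapped. The share of all genes that lay apart in these ratios was not computed. Against Trp63, the transcription factor that marks the basal layer, every member was higher in both MOF cKO libraries, from 0.30 for Col17a1 to 1.51 for Plec, so the side of Col17a1 and Itga6 depends on the reference. Trp63 itself was at 708 and 632 CPM in control and at 484 and 417 CPM in MOF cKO (log2 difference -0.57, adjusted p = 0.00870, below the fold threshold). A fall of Trp63 by itself raises every ratio to it. In Kansl1 cKO the log2 difference of Trp63 was 0.40 and not called. There the ratio to Trp63 was lower in both libraries for Itgb4 (-0.42), Itga3 (-0.28), Itgb1 (-0.16), Itga6 (-0.54), Col17a1 (-0.63) and Plec (-0.64). Dst (-0.095) and Cd151 (0.20) overlapped.

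In Kansl1 cKO at P0.5, 0 of the 8 genes were called in either direction by edgeR, and DESeq2 called 0. Over all 13031 genes tested, edgeR called 0 (0%), and DESeq2 called 0.506% lower and 0.269% higher, 0.775% in all. The log2 difference was above 0 for 4 of the 8 and for 51.4% of all genes, with a median of 0.05 against 0.01. An unadjusted p under 0.05 was found for 15.7% of all genes, and Cd151 was the 1 member of 8 with an unadjusted p under 0.05. It was at 41.8 and 59.7 CPM in control and at 82.8 and 69.2 CPM in Kansl1 cKO, apart but not called (log2 difference 0.58, standard error 0.214, adjusted p = 0.279 by edgeR). Leaving out a library moved this value between 0.35 (control replicate 1 left out) and 0.83 (control replicate 2 left out, the library with low Xist), and in both cases 0 of the 8 were called.

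The other members differed by less. Dst was at 431 and 465 CPM in control and at 618 and 495 in Kansl1 cKO (0.31, adjusted p = 0.456), and Itgb1 was at 289 and 295 CPM against 367 and 324 (0.24, adjusted p = 0.521). Itga3 was at 145 and 149 CPM against 163 and 157 (0.12), and Itgb4 at 252 and 253 CPM against 256 and 242 (-0.02). On the lower side, Itga6 was at 237 and 228 CPM against 205 and 216 (-0.14), Col17a1 at 1283 and 1193 CPM against 1046 and 1058 (-0.24), and Plec at 429.9 and 423 CPM against 372 and 351 (-0.24). Both Kansl1 cKO libraries lay above both controls for 4 genes (Itga3, Itgb1, Dst and Cd151) and below them for 3 (Itga6, Col17a1 and Plec), where 26.0% and 22.7% of all genes did so, 48.7% together. Adjusted p ranged from 0.279 to 0.968 over the 8.

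Of the markers of other cell types, 0 were called by edgeR in Kansl1 cKO, where 15.7% of all genes had an unadjusted p under 0.05. Fibroblast markers summed to 1096 to 1762 CPM in control and 741 to 927 in Kansl1 cKO (0 of 8 called by edgeR, 4 lower by DESeq2, 6 at an unadjusted p under 0.05), and melanocyte markers to 474 to 532 CPM against 1027 to 1143 (0 of 7 by edgeR, 4 higher by DESeq2, 7 at an unadjusted p under 0.05). Mural and muscle markers were at 180.2 CPM in control replicate 1, 5.11 in control replicate 2 and 2.45 to 3.05 in Kansl1 cKO. Acta1, the highest of them in control, was at 121 and 1.49 CPM in the controls. Of the mural and muscle markers, 3 of 3 tested had an unadjusted p under 0.05 and 0 were called by DESeq2. Macrophage markers summed to 203 to 237 CPM in control and 297 to 324 in Kansl1 cKO (4 of 12 at an unadjusted p under 0.05). Hair germ markers summed to 1083 to 1213 against 1200 to 1639 (2 of 7), and Schwann cell markers to 19.2 to 20.9 against 19.9 to 24.3 (1 of 3 tested). The same count was 0 of 3 tested for endothelial and 0 of 9 for suprabasal markers. Endothelial markers were at 4.65 to 8.59 against 3.08 to 3.58 CPM, with Emcn at 0 in both Kansl1 cKO libraries. Suprabasal markers overlapped, at 44864 to 79080 against 45885 to 76024 CPM. Their part in the members' values was not tested.

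The difference between the MOF effect and the Kansl1 effect was tested directly over all 8 libraries. EdgeR called 0 of the 8 genes at an adjusted p of 0.01, against 2.92% of 14565 genes (1.17% lower and 1.76% higher), and DESeq2 called 1, against 10.3% (3.57% lower and 6.70% higher). An unadjusted p under 0.05 was found for 3 of the 8 and for 31.2% of all genes, and a difference above 0 for 5 of the 8 and 46.6%. Plec, the gene with the largest difference among the 8, was 1.13 higher on the log2 scale in the MOF comparison (standard error 0.260, adjusted p = 0.0242), and was the gene DESeq2 called (1.23, adjusted p = 0.000241). At an adjusted p of 0.05, Plec was the 1 of 8 called, where 13.8% of all genes were, 7.05% higher and 6.76% lower. Itgb4 differed by 0.44 (standard error 0.167, adjusted p = 0.109) and Itgb1 by 0.43 (standard error 0.180, adjusted p = 0.144). Itga3 differed by 0.34 (standard error 0.205, adjusted p = 0.288). Cd151 differed by 0.16, Col17a1 by -0.08, Itga6 by -0.15 and Dst by -0.21, all within 1 standard error of 0. The gene deleted, the stage, the isolation and the sequencing instrument differ together between the experiments and cannot be told apart. Sex, as read from Xist and Ddx3y, differs with them: MOF cKO libraries read as male and Kansl1 cKO libraries as female.

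Genes around the members were taken from lists chosen for the function of the apparatus. Over all genes tested in MOF cKO, edgeR called 10% higher and 9.59% lower, and DESeq2 called 13% and 12.4%. By edgeR, 48.9% had an unadjusted p under 0.05. Of 7 genes for epidermal laminin and anchoring fibrils, 2 fell and 0 rose in MOF cKO, by edgeR and by DESeq2 alike, with a median log2 difference of -0.05. Col7a1, the anchoring fibril collagen, was at 1335 and 1638 CPM in control and at 776 and 863 CPM in MOF cKO (log2 difference -0.86, adjusted p = 0.00247). Lamc1, a laminin gamma chain, was at 416 and 449 CPM against 265 and 269 (-0.70, adjusted p = 0.00222). Lama3 and Lamb3, chains of epidermal laminin, were not called, with log2 differences of 0.17 and -0.11 (adjusted p = 0.238 and 0.574).

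Of 19 other integrin subunits tested, 4 rose and 0 fell in MOF cKO by edgeR and 6 rose by DESeq2, with a median log2 difference of 0.77. An unadjusted p under 0.05 was found for 10, close to the 48.9% of all genes. The largest rises were those of Itgal and Itgb2, which pair in leukocytes, and of Itga8. Itgal was at 0.0978 and 0.0722 CPM in control and at 3.41 and 1.61 CPM in MOF cKO (log2 difference 4.80, adjusted p = 0.00463), and Itgb2 at 0.130 and 0.144 CPM against 2.26 and 1.40 (3.69, adjusted p = 0.00999), both far below the members and resting on 2 to 4 counts in each control. Itga8, an alpha chain that pairs with Itgb1, was at 2.77 and 4.08 CPM against 11 and 14.9 (1.92, adjusted p = 0.00310). Macrophage markers rose in the same libraries, as given above.

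In the plaque that links integrins to actin, 6 of 27 genes rose and 3 fell (median log2 difference 0.30). Zyx, zyxin, rose from 78.8 and 70.5 CPM to 212 and 207 (log2 difference 1.49, adjusted p = 0.000319), with Tns4 (0.96) and Bcar1 (0.90). Tln2, a talin, fell from 37.2 and 40.7 CPM to 12.6 and 11.2 (-1.71, adjusted p = 0.000539), with Kank2 (-1.42) and Rsu1 (-0.81). Among 21 other tetraspanins, 3 rose (Cd81 by 1.15, Cd63 by 0.66 and Tspan31 by 0.61) and 2 fell (Tspan15 by 2.84 and Tspan18 by 1.95 on the log2 scale). The fall of Tspan15 rests on 6 and 20 counts in MOF cKO against 109 and 134 in control. Its standard error was 0.608 and its adjusted p by edgeR 0.00998, just inside the threshold. Their median was -0.07, and edgeR called 19.6% of all genes either way.

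Among 5 other plakins and keratin linkers, edgeR called 0, with a median of 0.52, DESeq2 called 2 higher, and 4 had an unadjusted p under 0.05. Of 5 proteases listed for the shedding of Col17a1 from the cell surface, 1 rose, Adam8, from 9.0 and 15.2 CPM to 48.3 and 56.5 (log2 difference 2.12, adjusted p = 0.00102). The others were not called by edgeR: Adam9 (0.20), Adam10 (0.15), Adam15 (0.10) and Adam17 (0.20), with adjusted p from 0.211 to 0.642. Macrophage markers rose in the same libraries, and their part in the value of Adam8 was not tested. Of the basal keratins, Krt15 fell from 4160 and 3327 CPM to 1507 and 1626 (-1.26, adjusted p = 0.000745), while Krt5 (-0.04) and Krt14 (0.20) were not called. At P0.5, edgeR called 0 genes of every one of these 7 lists, and DESeq2 called 0 as well. An unadjusted p under 0.05 was found there for 5 of 19 integrins, 4 of 26 plaque genes, 3 of 21 tetraspanins and 1 of 4 basal keratins and p63, and for 0 genes of the other lists. Over all genes at P0.5 the share was 15.7%, and the counts of plaque genes and tetraspanins were near it. In MOF cKO, scaling by library size alone left 2 integrins higher, 2 plaque genes higher and 3 lower, and 1 tetraspanin higher and 5 lower. It moved the median of the plaque genes from 0.30 to -0.00128.

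**Figure D5:**
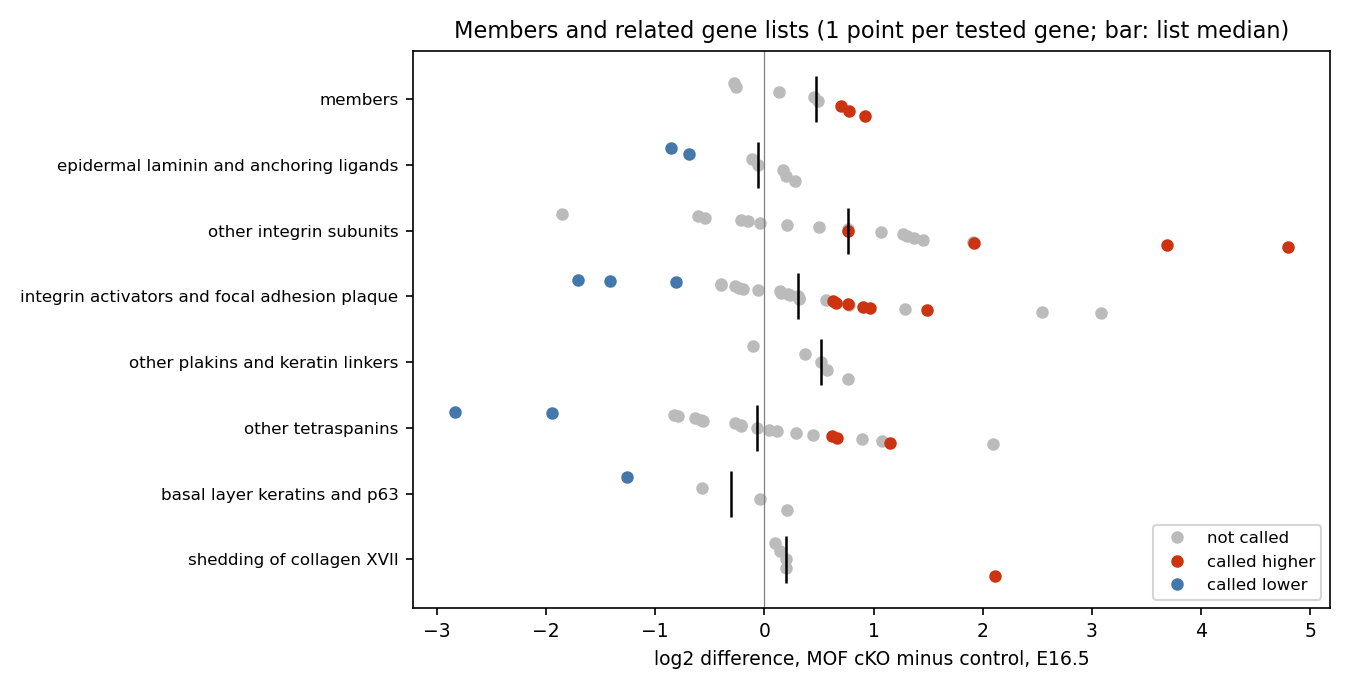
Log2 difference between MOF cKO and control at E16.5 for each tested gene of the 8 described and of 7 related lists, with red for called higher, blue for called lower, grey for not called and a bar at each list's median. Calls go both ways in the focal adhesion plaque and the tetraspanins, and only to the lower side among laminin and anchoring ligands.

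Patterns across libraries were compared after centring log2 CPM on the mean of each experiment, over all 8 libraries and 9023 genes with a mean of at least 10 CPM. These correlations are descriptions: the libraries share their groups, so a genotype difference alone gives a high value. Itgb4 went with Itgb1 (Pearson r = 0.94, Spearman rho = 0.90) and with Itga3 (r = 0.91), while Itga6, its own partner, went against it (r = -0.66, rho = -0.43). Itga3 and Itgb1 went together (r = 0.94), and Col17a1 went against Cd151 (r = -0.93). The genes most like Itgb4 were Nub1 (r = 0.997), Prpf3 (0.994) and Skint1 (0.992), and those most like Col17a1 were Tsnax (0.987), Polr2k (0.982) and Atxn10 (0.973). Skint1 passed the filter of 10 CPM through its P0.5 level, and its E16.5 values rest on 25 to 115 counts. Among the 9022 other genes, Itgb1 was at place 260 in likeness to Itgb4.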

How the data were processed

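The deposited files hold whole-number counts of reads per gene symbol, which the authors made with HTSeq from reads aligned to mm10. The labels name TopHat2 and the methods HISAT2 as aligner, and the strand setting of the counting is not given in the sources used here. Entries naming no gene held 21.1 to 26.0% of reads and were left out. Each experiment was fitted alone with edgeR 4.0.16 (R 4.3.3) after its default filter on low counts, with TMM factors, the quasi-likelihood test and Benjamini-Hochberg adjustment over all genes tested. The difference between the experiments was a contrast over all 8 libraries, called by adjusted p alone. DESeq2 1.42.0 was an alternative. All 8 members passed the filter in each fit. CPM used TMM factors within an experiment; TPM used union exon lengths from GENCODE M21. The test scripts were checked on simulated counts. With 2 libraries per group, labelled as separate samples, p-values measure the spread between these samples, and depth was 9108709 to 27561688 counts on genes.

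Members, lists and named genes were chosen with earlier results of these data known. Named from each other list were up to 3 called genes per direction with the largest E16.5 difference; Lama3, Lamb3, Krt5, Krt14, Trp63, Kat8 and Kansl1 were always named (1 other gene is not reported here), as were the 3 genes most like Itgb4 and the 3 most like Col17a1. Xist and Ddx3y were named after their values were seen. Promoter windows came from RefSeq.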

Additional observations from a re-analysis of the deposited data

Results flagged for a closer look

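The difference between the MOF effect and the Kansl1 effect passed edgeR's test over all 8 libraries for 3 genes named beside the 8. It passed for 0 of the 8 themselves and for 2.92% of all 14565 genes tested. Itgal and Tspan18 were named for their large E16.5 differences in these same libraries, which enter this contrast, so their values are descriptions. Itgal, an integrin chain of leukocytes, differed by 4.11 on the log2 scale (standard error 0.700, adjusted p = 0.00870); both MOF cKO libraries lay above both E16.5 controls, on 2 and 3 counts in those controls. Skint1, which was chosen for its likeness to Itgb4 over the same libraries, so that its value is a description, differed by 2.17 (standard error 0.310, adjusted p = 0.00503), at 0.978 and 0.903 CPM in E16.5 control, 3.87 and 4.87 CPM in MOF cKO, and a mean of 65.6 CPM in P0.5 control against 66.1 in Kansl1 cKO. Tspan18, a tetraspanin, differed by -2.31 (standard error 0.314, adjusted p = 0.00423), with 56.4 and 80.5 CPM in E16.5 control and 15.6 and 19.8 in MOF cKO. With the replicate block, 0 of the 3 were called: adjusted p was 0.0293 for Itgal, 0.0312 for Skint1 and 0.0172 for Tspan18, with log2 differences of 4.10, 2.16 and -2.28. Macrophage markers summed to 21.1 to 46.5 CPM in E16.5 control and 111 to 139.5 in MOF cKO, and their part in these values was not tested. Deleted gene, stage, isolation, sequencing instrument and the sex of the cKO libraries cannot be told apart in this contrast. Groups of 2 libraries are too small to look for a library far from the others.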

How the results depend on the processing

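The count of members called lower was 0 in both experiments under every alternative run, and the count called higher in Kansl1 cKO was 0. In MOF cKO, 3 were called higher with DESeq2, DESeq2 size factors, either other filter, an adjusted p of 0.05, a fit over all libraries and the replicate block, 2 with upper-quartile factors, 0 with library size alone, and 2 to 4 with a library left out. The count for the difference between experiments was 1 (Plec) with DESeq2, 1 without a filter on low counts (each gene with 1 count or more kept) and 1 at an adjusted p of 0.05, and 0 to 0 with a library left out. The TPM ratio of Col17a1 to Dst in E16.5 control was 38.1, 23.0 with longest transcripts, and 35.2 to 41.0 with a library left out; the log2 difference of Itga6 per Itgb4 was -0.97 to -0.47. Plec ranged from 0.69 to 1.2 and Itga6 from -0.47 to -0.08 in MOF cKO with a library left out. The cause was not tested.

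Signs turned only for differences that were not called, or for ratios. Dst in MOF cKO was -0.17 with library size alone and -0.054 to 0.34 with a library left out. Itgb4 in Kansl1 cKO was 0.013 in a fit over all libraries and -0.096 to 0.024 with a library left out. For the difference between experiments, Col17a1 was 0.025 with DESeq2, 0.025 with its size factors and 0.050 without a filter on low counts, and Cd151 was -0.052 with library size alone. With a library left out these ranged from -0.13 to 0.032 for Col17a1, -0.14 to 0.39 for Cd151, -0.36 to 0.17 for Itga6 and -0.40 to 0.091 for Dst. As a ratio to Trp63, Col17a1 was 0.30 in MOF cKO, and Itga3 was -0.28, Itgb1 -0.16, Itgb4 -0.42 and Dst -0.095 in Kansl1 cKO. In Kansl1 cKO, Itgb4 to Krt5 was -0.00336 and Plec to Krt14 was 0.042. Ratios whose libraries overlapped against Krt5 plus Krt14 turned as well. In MOF cKO, Itga6 to Trp63 was 0.31 and Dst to Krt14 was -0.060. Itga6 to Krt14 was 0.14 and Col17a1 to Krt14 was 0.047 in Kansl1 cKO. Some ratios to Krt5 plus Krt14 also turned with a library left out.

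The replicate block, which pairs libraries by number, left 3 members higher and 0 lower in MOF cKO and 0 called in Kansl1 cKO. Over all genes it moved the MOF calls from 1395 higher and 1338 lower to 1903 and 2263, and those of the difference between experiments from 256 and 170 to 1 and 0. Deviations of same-numbered libraries had a correlation of 0.27 at E16.5 and -0.30 at P0.5, with 2 pairs each, so the numbers were not taken as pairs. A crossed pairing at P0.5, chosen after seeing the data, gave 0 members and 1 gene in all. Over all genes, library size alone gave 769 higher and 2743 lower in MOF cKO, DESeq2 976 and 520 for the difference, and leaving out 1 library at P0.5 up to 76 higher and 197 lower.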
